A study of Mus musculus with 12 samples.

Results

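Ribosome biogenesis, the making of ribosomal RNA and its assembly with proteins into ribosomal subunits, was followed through 40 genes of nucleolar proteins, small nucleolar ribonucleoproteins (snoRNPs), pre-ribosome processing factors and polyamine enzymes. The 40 genes were chosen by symbol with earlier results of these data known. Shares of all genes printed beside their counts are therefore description and not a test of the list. The symbols were matched to the gene names of the deposited table, and all 40 were found among its 54100 genes. Each was measured in mesenchymal progenitors of mouse plantaris muscle, also called fibro-adipogenic progenitors (FAPs), the Pdgfra-expressing stromal cells that lie between muscle fibres. Of the 40 genes, 37 had enough counts to be tested among 8161 genes, and Rrp12, Polr1b and Wdr74, with 58, 44 and 41 counts over all libraries, are given by counts only.

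Ribosomes are built in the nucleolus. RNA polymerase I transcribes a long precursor RNA there, box C/D snoRNPs direct its methylation, box H/ACA snoRNPs direct its pseudouridylation, and separate sets of factors cut and fold it into the small and large subunits. Cells that enter growth or division are known to raise this machinery, and the transcription factor MYC is a well-studied activator of its genes. Polyamines, small cations made through ornithine decarboxylase and spermidine synthase, bind RNA and are needed for translation.

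The 12 libraries form 4 groups of 3. Control mice carry Pdgfra-CreERT2, a tamoxifen-inducible Cre recombinase under the Pdgfra promoter. Mice labelled cdKO carry the same Cre with Yap1 flox/flox and Taz flox/flox (Taz has the symbol Wwtr1 in the table), which encode 2 transcriptional coactivators of the Hippo pathway, so that the Cre is shared by all groups and only cells with Pdgfra promoter activity can lose the genes. Cells came from sham-operated or from overloaded plantaris of each genotype, as Pdgfra+ sorts of 1000 cells per tube. Age, sex, the interval between surgery and sampling, tamoxifen dosing and any pooling of mice are not stated, nor is it stated that replicates came from separate mice, so p-values measure only how these libraries spread, and that spread may be technical.

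Library totals ran from 336437 to 1564581 counts, and a floor of 3 counts corresponded to 1.95 to 9.72 CPM (counts scaled by library size), which limits what can be seen of the weakest genes. Control overload 2, the largest library, had the fewest genes with a count, 16744 against 19700 to 23918 in the others. The part of this in the results was not tested. The 12 mesenchymal progenitor markers summed to 87605 to 105866 CPM in sham and 65553 to 90441 in overload libraries of control mice, and to 97408 to 103724 and 96129 to 105159 in those of cdKO mice. In each genotype 6 of the 12 were lower under overload and 2, Col1a1 and Col3a1, were higher. Their median log2 fold change was -0.74 in control and -0.80 in cdKO. Pdgfra, the gene whose promoter drives the Cre, was not called in control and was lower in cdKO. Macrophage markers summed to at most 67.6 CPM in any library, lymphocyte markers to 42.1 and myofibre markers to 143, and 0 of the 3 macrophage and myofibre markers with enough counts passed between loads. Endothelial markers (1 of 5 tested lower in control, 2 in cdKO, 0 higher) summed to 104 to 178 CPM in sham and 18.2 to 94.8 in overload libraries of control mice, and to 73.3 to 166 and 25.8 to 53.3 in those of cdKO mice. Pericyte and smooth muscle markers (2 of 5 lower in control, 1 in cdKO, 0 higher) summed to 399 to 515, 131 to 249.8, 363 to 585 and 298 to 321 CPM in the same order. Schwann and nerve markers (the only one tested, Pmp22, was lower in both genotypes) summed to 304 to 537, 183 to 265, 469.7 to 558 and 243 to 376 CPM in that order. Muscle stem cell and myoblast markers summed to between 32.4 and 64.2 CPM. Of the 2 tested, Msc was higher and Des lower in control, and 0 passed in cdKO, where 0 had an unadjusted p under 0.05. Erythroid markers reached 281 CPM in control overload and 129.5 in cdKO sham and at most 4.50 in the other groups. Of the 3 tested, 0 passed between loads in control, and 1 was lower under overload in cdKO. An unadjusted p under 0.05 was found for 1 of them in control and for 3 in cdKO. All markers of these lists had at least 1 count, and their part in the results was not tested.

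Wwtr1 was at 124, 108 and 126 CPM in the sham and 174, 125 and 125 in the overload libraries of control mice, and at 36.7, 40.6 and 27.1 in the sham and 20.1, 18.2 and 22.5 in the overload libraries of cdKO mice, so that every cdKO library was below every control library. It was lower in cdKO under sham (-1.74 ± 0.27 on the log2 scale, edgeR adjusted p = 0.00733) and under overload (-2.78 ± 0.28, adjusted p = 1.83e-06), whereas Yap1 did not pass in either (-0.61 ± 0.30, adjusted p = 0.999, and -0.85 ± 0.32, adjusted p = 0.586). Under sham Yap1 was at 108, 91.6 and 93.95 CPM in control and 71.5, 56.2 and 65.7 in cdKO libraries, which did not overlap. Under overload it was at 91.3, 47.4 and 39.7 in control and 40.2, 22.1 and 33.7 in cdKO libraries, where 1 control library lay within the cdKO range. The floxed exons are not given and the protocol cited tags 3′ ends, so these reads may lie outside the deleted part. On the first principal component control overload 1 (15.8) and cdKO overload 2 (7.39) lay nearer to the sham libraries than the other overload libraries did (32.6 to 61.1), and results without each are given below.

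In control progenitors, overload raised 16 of the 37 tested ribosome biogenesis genes, led by the spermidine synthase gene Srm, the early assembly factor Ebna1bp2, the pseudouridylation protein Nhp2 and nucleolin (Ncl). In all, 16 were higher, 1 was lower and 20 did not pass at an edgeR adjusted p under 0.05 over all genes, where 21.7% of the 8161 genes passed, 10.6% higher and 11% lower. The log2 fold change was above 0 for 34 of the 37, against 47.8% of all genes tested, and its median was 0.78 against -0.05 over all genes. The risers were Srm, Ebna1bp2, Nhp2, Ncl, Npm1, Nop16, Bop1, Mybbp1a, Ddx21, Gar1, Dkc1, Wdr75, Pes1, Ftsj3, Nolc1 and Mrto4, and the gene that fell was Nop58. In CPM, 23 of the 40 genes (21 of the 37 tested) were higher and 1 was lower in every control overload library than in every control sham library; among all genes tested 18% and 18.9% separated in this way. Counts of calls shifted with the libraries used: 11 without control sham 1, control sham 2 or control overload 3, 12 without control overload 2, 22 without control overload 1, and 4 without control overload 2 and control sham 3 together, the largest and the smallest library, a setting chosen after seeing the data. Srm, Nhp2, Ncl and Ebna1bp2 stayed past the threshold under all of these and all other alternatives run.

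**Figure D1:**
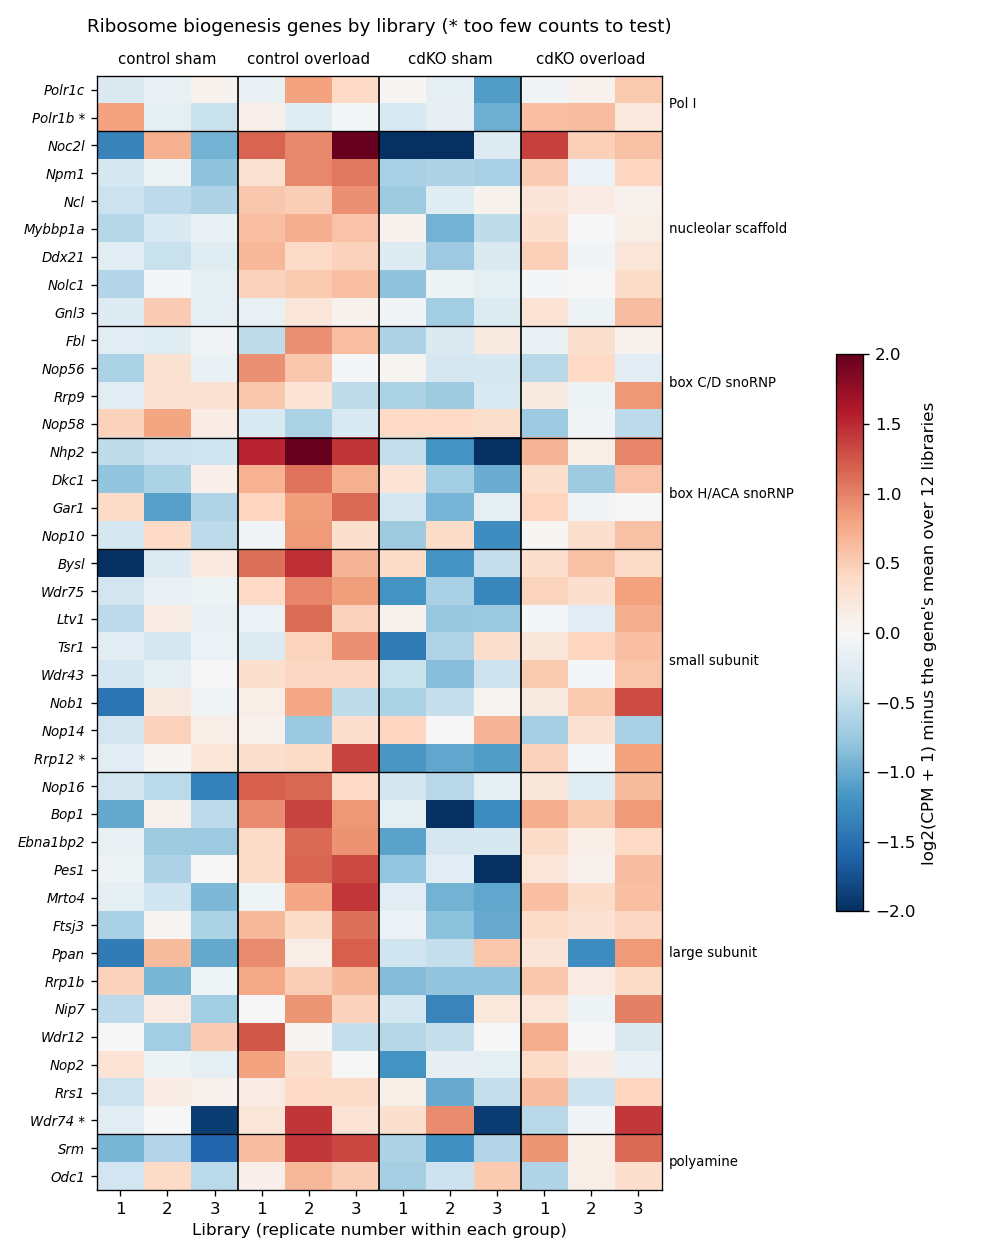
Heat map of the 40 genes (rows, grouped by role) in the 12 libraries (columns); colour is log2(CPM + 1) minus the gene's mean over the 12 libraries, with the scale ending at -2 and 2. Most rows are red in the overload columns and blue in the sham columns of both genotypes, and Nop58 shows the opposite pattern.

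Promoter sequence around the annotated start was available for 34 of the 40 genes (RefSeq, build GRCm38.p6, 250 bases before to 50 after the start). Stretches are shown for 5 of the risers in control overload that had a promoter sequence and the smallest p, taking first those with the letters CACGTG, the E-box that MYC family proteins bind; capitals mark matches, on either strand, to CACGTG, to the GC box GGGCGG or to the ETS-type letters CCGGAAG. Mybbp1a is shown from 21 to 50 bases after its start (chr11:72441347-72441376, plus strand), Pes1 from 10 before to 20 after (chr11:3963965-3963994, plus strand) and Ebna1bp2 from 15 before to 15 after (chr4:118620784-118620813, plus strand). Nhp2 (chr11:51619653-51619772, plus strand) and Ncl (chr1:86359456-86359575, minus strand) are shown over the 120 bases before the start. All starts here are those of RefSeq, whereas the gene coordinates given elsewhere come from another annotation. In that annotation Nhp2 begins at 51619735 and Mybbp1a at 72441355, each inside its printed stretch.
Mybbp1a: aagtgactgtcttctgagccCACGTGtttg
Pes1: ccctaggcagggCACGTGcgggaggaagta
Ebna1bp2: gcaacgagaaaaCCGGAAGtgcggctatga
Nhp2: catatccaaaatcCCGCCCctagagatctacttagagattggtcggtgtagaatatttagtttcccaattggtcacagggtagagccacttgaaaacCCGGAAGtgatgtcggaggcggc
Ncl: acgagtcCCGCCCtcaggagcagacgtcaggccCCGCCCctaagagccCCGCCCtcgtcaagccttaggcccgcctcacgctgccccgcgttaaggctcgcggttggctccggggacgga
The E-box letters stood in 6 of 34 promoters (17.6%; Ltv1, Mybbp1a, Nop2, Pes1, Tsr1 and Wdr43), against 8.09% of 27025 genes with a promoter and 12.2% of those tested. Of the 6, Mybbp1a and Pes1 rose in control overload and Wdr43 rose in cdKO overload. The ETS-type letters stood in 12 (35.3%), against 9.93% of all and 20.5% of tested genes, and GC boxes in 26 (76.5%), against 38.2% and 72.3%. AAGATGG (YY1) was found in 2 of 34 (5.88%; 7.28% of all genes) and GGAATG (TEAD factors, the partners of YAP and TAZ) in 1, Polr1b (2.94%; 16.6% of all genes, 14.2% of tested genes). All letters were searched on both strands, none was tested, and a match describes the sequence only.

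Among the nucleolar scaffold and rDNA-associated proteins, 5 of 7 rose in control overload and 0 fell, where 10.6% of all genes rose and 11% fell. Ncl (nucleolin, chr1:86344719-86359400, minus strand, GRCm38) binds nascent ribosomal RNA and is among the most abundant nucleolar proteins. Its CPM was 574, 537 and 499 in the control sham libraries and 1116, 1079 and 1451 under overload, a log2 fold change of 1.18 ± 0.25 (SE, edgeR adjusted p = 0.00137). In cdKO libraries it was 469, 653 and 804 under sham and 924, 865 and 818 under overload (0.44 ± 0.25, adjusted p = 0.263). Every control overload library exceeded every other library for Ncl, and the cdKO overload libraries lay only just above the highest cdKO sham library.

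Npm1 (nucleophosmin, chr11:33152287-33163206, minus strand), a chaperone that shuttles pre-ribosomes and histones, had 466, 543 and 330.5 CPM in control sham and 718, 1131 and 1211 in control overload (1.19 ± 0.27, adjusted p = 0.00219). Its cdKO values were 370.3, 379 and 371 under sham and 825, 534 and 784 under overload (0.93 ± 0.26, adjusted p = 0.0206). Sham and overload did not overlap in either genotype, and the lowest overload libraries were control overload 1 and cdKO overload 2. Npm1 has 6 annotated pseudogene copies of its 3′ end, which together held 165 counts against 6304 for the gene, so a small part of its reads may be misassigned.

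Mybbp1a, a nucleolar repressor of RNA polymerase II factors that also takes part in ribosomal RNA processing, stood at 40.5, 49.2 and 55.1 CPM in control sham and 93.04, 101 and 91.1 in control overload (0.99 ± 0.28, adjusted p = 0.0131). It was at 64.2, 31.2 and 42.5 in cdKO sham and 77.2, 61.1 and 66.2 in cdKO overload (0.60 ± 0.28, adjusted p = 0.168). The control groups were well apart, and cdKO sham 1 reached into the cdKO overload range. Ddx21, an RNA helicase of the nucleolus, had 176, 152 and 175 CPM in control sham and 329, 270.02 and 286 in control overload (0.82 ± 0.23, adjusted p = 0.0135). Its cdKO libraries held 172, 125 and 168 under sham and 287, 198 and 245 under overload (0.66 ± 0.23, adjusted p = 0.0630). All 3 overload libraries of each genotype exceeded that genotype's sham libraries, although only control passed the test.

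Nolc1, a chaperone of snoRNPs, stood at 158, 232 and 211 CPM in control sham and 326, 342 and 362 in control overload (0.77 ± 0.24, adjusted p = 0.0242), and at 136, 221 and 207 in cdKO sham and 232, 235 and 305 in cdKO overload (0.45 ± 0.24, adjusted p = 0.237). Its control groups were clearly separate and its cdKO groups nearly touched. Noc2l, a nucleolar histone-binding protein, was scarce, at 2.25, 12.3 and 3.24 CPM in the sham and 17.2, 14.9 and 39.7 in the overload libraries of control mice, and at 0, 1.04 and 5.80 in the sham and 20.1, 10.4 and 11.2 in the overload libraries of cdKO mice. It passed in cdKO (2.66 ± 0.83, adjusted p = 0.0339) on only 4 counts in the 3 sham libraries, so the size of the fold is poorly fixed, and it did not pass in control (1.76 ± 0.67, adjusted p = 0.0622). Gnl3 (nucleostemin), a nucleolar GTPase, did not pass in control (-0.01 ± 0.26, adjusted p = 0.986) or in cdKO (0.63 ± 0.26, adjusted p = 0.116), and its sham and overload ranges overlapped in both genotypes.

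The snoRNP proteins fall into 2 classes. Of the 4 box H/ACA proteins, which form the pseudouridylation core, Nhp2, Gar1 and Dkc1 rose in control and Nop10 did not pass (0.50 ± 0.35, adjusted p = 0.328). Of the 4 box C/D proteins none rose in control and Nop58 fell, where 10.6% of all genes rose and 11% fell. In cdKO 1 of 4 rose in each class, Nhp2 and Rrp9, and Nop58 fell, where 6.37% of all genes rose and 6.68% fell. A difference between the classes was not tested.

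Nhp2 (chr11:51619735-51623714, plus strand) was detected at 9.01, 9.57 and 9.72 CPM in control sham, close to the floor of 3 counts, and at 39.6, 59.7 and 37.4 in control overload (2.28 ± 0.47, adjusted p = 0.00118), the largest fold among the 37 genes in control. It was at 9.17, 5.21 and 0 CPM in cdKO sham and 21.6, 14.3 and 26.9 in cdKO overload (2.06 ± 0.54, adjusted p = 0.0125). Overload libraries exceeded sham libraries in both genotypes, and cdKO sham 3 held no Nhp2 count. Its exons share 44 bases with Rmnd5b on the opposite strand, and without a stated strand setting the reads of the 2 genes cannot be told apart there.

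Gar1 stood at 58.6, 20.5 and 29.2 CPM in control sham and 60.3, 80.5 and 99.2 in control overload (1.20 ± 0.34, adjusted p = 0.0137), and at 34.8, 22.9 and 38.7 in cdKO sham and 60.3, 42.9 and 44.9 in cdKO overload (0.65 ± 0.35, adjusted p = 0.235). Control sham 1 came close to control overload 1, while the remaining sham libraries were far lower. Dkc1 (dyskerin), the pseudouridine synthase itself, had 13.5, 15.04 and 25.9 CPM in control sham and 39.6, 51.9 and 39.7 in control overload (1.35 ± 0.41, adjusted p = 0.0205). In cdKO it had 29.3, 14.6 and 11.6 under sham and 30.9, 14.3 and 35.9 under overload (0.58 ± 0.41, adjusted p = 0.391), with cdKO overload 2 as low as the sham libraries.

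Nop58 (chr1:59684971-59719044, plus strand), a core box C/D protein, was the only one of the 37 to fall, and it fell in both genotypes. Its CPM went from 617, 775 and 496 in control sham to 364, 289 and 364 in control overload (-0.90 ± 0.25, adjusted p = 0.0102) and from 588, 588 and 574 in cdKO sham to 270.4, 430.3 and 309.9 in cdKO overload (-0.79 ± 0.25, adjusted p = 0.0333). Every overload library lay below every sham library of its genotype. A stretch of 101 bases near the 3′ end of Nop58 is 95.05% identical to the antisense RNA gene Kcnq1ot1, which held 3941 counts against 3927 for Nop58, so reads of Nop58 are uncertain. The call in control was lost without control sham 2 (edgeR adjusted p = 0.0945), without control overload 2 (0.0856), without control overload 2 and control sham 3 together (0.0739) and with no filter on low counts (0.147). In cdKO it was lost with each library but cdKO overload 2 left out (0.0642 to 0.177), with no filter (0.314) and with counts thinned to the smallest library (0.0549), and the change stayed negative in all of these. Its partner Nop56 did not pass (0.58 ± 0.33, adjusted p = 0.207, in control; 0.14 ± 0.33, adjusted p = 0.848, in cdKO), nor did Fbl (fibrillarin), the methyltransferase of the complex (0.71 ± 0.35, adjusted p = 0.147, and 0.33 ± 0.34, adjusted p = 0.592).

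**Figure D2:**
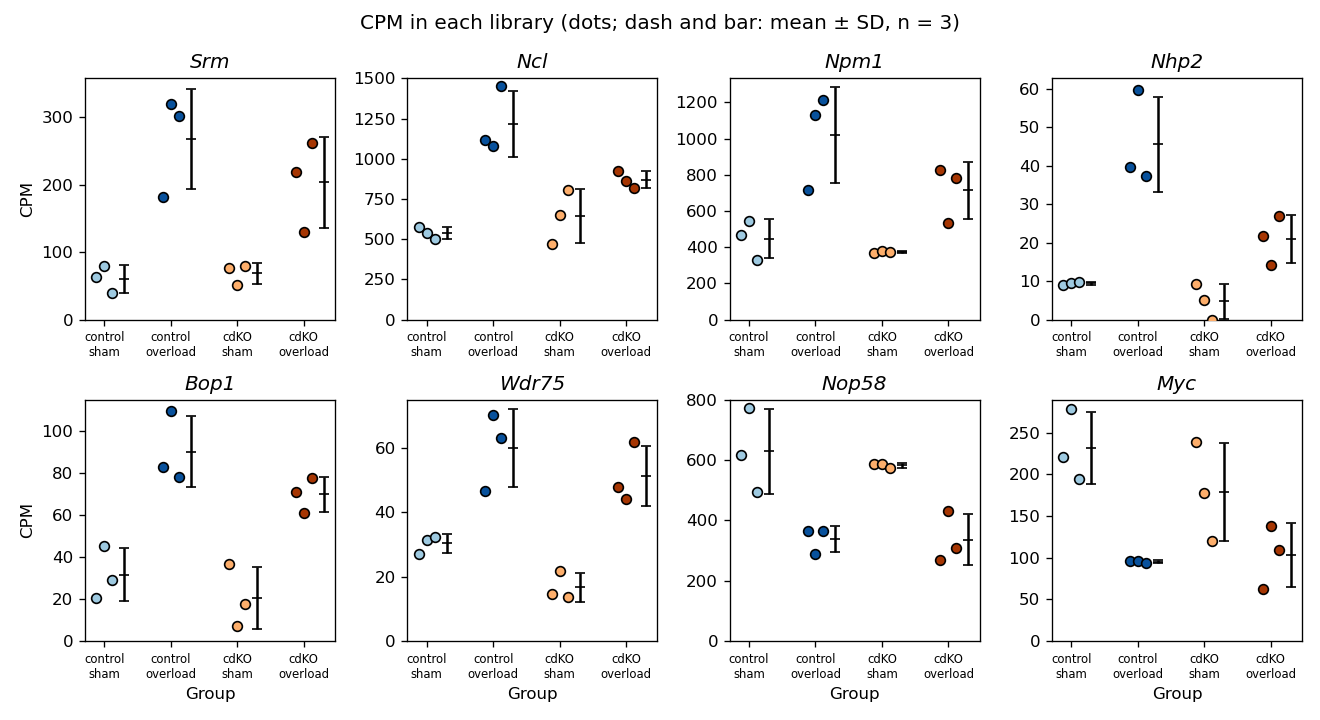
CPM of 8 genes in each of the 12 libraries (dots), with the mean and SD of each group of 3 (dash and bar); each panel's vertical axis starts at 0. Srm, Ncl, Npm1, Nhp2, Bop1 and Wdr75 were higher and Nop58 and Myc lower in the control overload than in the control sham libraries.

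Of the 12 large subunit factors tested, 6 rose in control and 4 in cdKO, where 10.6% and 6.37% of all genes did. The fitted change of all 12 was above 0 in both genotypes. Ebna1bp2, an early large-subunit assembly factor, had 63.1, 42.4 and 42.1 CPM in control sham and 91.3, 154 and 132 in control overload (1.37 ± 0.29, adjusted p = 0.00114). It had 33, 55.2 and 56.1 in cdKO sham and 91.2, 76.7 and 93.2 in cdKO overload (0.84 ± 0.28, adjusted p = 0.0477). Both genotypes separated without overlap.

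Bop1 and Pes1 belong with Wdr12 to the PeBoW complex, which is needed to process the precursor of the large subunit RNAs. Bop1 stood at 20.3, 45.1 and 29.2 CPM in control sham and 82.7, 109.7 and 78.2 in control overload (1.46 ± 0.37, adjusted p = 0.00573), and at 36.7, 7.29 and 17.4 in cdKO sham and 71.1, 61.1 and 77.5 in cdKO overload (1.88 ± 0.39, adjusted p = 0.00262). Pes1 had 18.02, 12.3 and 19.4 CPM under sham and 25.8, 44.8 and 50.2 under overload in control (1.36 ± 0.42, adjusted p = 0.0207), and 11, 16.7 and 3.87 under sham and 23.2, 20.8 and 30.3 under overload in cdKO (1.12 ± 0.43, adjusted p = 0.0876). Sham and overload stayed apart for both genes in both genotypes, whereas Wdr12 did not pass in either (0.47 ± 0.45, adjusted p = 0.483, and 0.54 ± 0.45, adjusted p = 0.479).

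Nop16, another nucleolar large-subunit protein, rose from 20.3, 17.8 and 9.72 CPM in control sham to 62.03, 59.7 and 35.02 in control overload (1.64 ± 0.38, adjusted p = 0.00259), while cdKO values were 20.2, 17.7 and 23.2 under sham and 30.9, 22.1 and 41.5 under overload (0.66 ± 0.36, adjusted p = 0.255). Ftsj3, a methyltransferase-like processing factor, had 22.5, 36.9 and 22.7 CPM under sham and 56.9, 46.7 and 78.2 under overload in control (1.07 ± 0.33, adjusted p = 0.0210), and 33, 19.8 and 17.4 under sham and 46.3, 44.2 and 48.3 under overload in cdKO (1.0 ± 0.33, adjusted p = 0.0469). Only the cdKO libraries of Nop16 overlapped between sham and overload. Mrto4, which prepares the ribosomal stalk, had 11.3, 9.57 and 6.48 CPM under sham and 12.1, 22.7 and 36.2 under overload in control (1.35 ± 0.49, adjusted p = 0.0497) and 11, 6.25 and 5.80 under sham and 20.1, 16.9 and 20.2 under overload in cdKO (1.32 ± 0.50, adjusted p = 0.0779), close to the threshold on few counts. Rrp1b passed in cdKO alone, with 12.8, 13.5 and 13.5 CPM under sham and 35.5, 27.3 and 31.4 under overload (1.22 ± 0.38, adjusted p = 0.0333), and its control libraries held 33.8, 12.3 and 22.7 under sham and 41.4, 34.4 and 38.5 under overload (0.78 ± 0.37, adjusted p = 0.128). The remaining large-subunit genes tested, Nip7, Ppan, Rrs1 and Nop2, had control fold changes from 0.37 to 1.0 on the log2 scale and did not pass in either genotype.

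Of the 7 small subunit factors tested, 1 rose in control and 2 rose in cdKO, where 10.6% and 6.37% of all genes did. Wdr75, a subunit of the complex that couples transcription to early small-subunit assembly, stood at 27.02, 31.4 and 32.4 CPM in control sham and 46.5, 70.1 and 63.04 in control overload (1.003 ± 0.31, adjusted p = 0.0206). Its cdKO libraries held 14.7, 21.9 and 13.5 under sham and 47.9, 44.2 and 61.7 under overload (1.56 ± 0.32, adjusted p = 0.00222). No library of one load reached the other load in either genotype.

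Wdr43, of the same complex, had 81.1, 90.2 and 104 CPM in control sham and 129, 138 and 138 in control overload (0.57 ± 0.24, adjusted p = 0.0967), and 75.2, 56.2 and 77.3 under sham and 148, 101 and 152 under overload in cdKO (0.96 ± 0.24, adjusted p = 0.0109). Its loads did not overlap in either genotype, although only cdKO passed. Bysl did not pass (1.83 ± 0.69, adjusted p = 0.0584, in control) and overlaps 361 bases of Ccnd3 on the opposite strand. Nob1, Ltv1 and Tsr1, late small-subunit factors, had control changes between 0.55 and 0.76, and Nop14 was at -0.24; none of these 4 passed in either genotype. Rrp12 held 8 counts in the sham and 28 in the overload group of control mice and 4 and 18 in those of cdKO mice, and the large-subunit factor Wdr74 held 3 and 19, and 8 and 11.

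Srm (spermidine synthase, chr4:148591503-148594993, plus strand) had the smallest p of the 37 genes in control. Its CPM was 63.1, 79.3 and 38.9 in control sham and 183, 319 and 302 in control overload (2.10 ± 0.31, adjusted p = 3.32e-05), and 76.99, 51.02 and 79.2 in cdKO sham and 219, 130.01 and 262 in cdKO overload (1.58 ± 0.30, adjusted p = 0.00117). The lowest overload library of each genotype was well above its highest sham library. Odc1 (ornithine decarboxylase), which makes the putrescine that spermidine synthase uses, did not pass in control (0.52 ± 0.39, adjusted p = 0.361) or cdKO (0.15 ± 0.40, adjusted p = 0.859). For RNA polymerase I itself, Polr1c did not pass (0.55 ± 0.29, adjusted p = 0.178, and 0.54 ± 0.29, adjusted p = 0.229), and Polr1b held 8, 13, 7 and 16 counts in the 4 groups in the order given above.

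In cdKO progenitors overload raised 11 of the 37 genes and lowered 1, with 25 not passing, where 13% of all genes passed, 6.37% higher and 6.68% lower. The median log2 fold change was 0.69 against -0.02 over all genes, and 35 of 37 lay above 0, against 48.7% of all genes. In CPM, 21 of the 40 (19 of the 37 tested) were higher and 1 was lower in every overload than in every sham library, against 15.4% and 14.7% of all genes. In both genotypes 7 genes rose (Bop1, Ebna1bp2, Ftsj3, Nhp2, Npm1, Srm and Wdr75) and Nop58 fell, 9 rose only in control and 4 (Noc2l, Rrp1b, Rrp9 and Wdr43) only in cdKO. The same split was not counted over all genes tested, so whether it differs from that of genes in general is not known. Passing in one genotype and not the other does not show a difference between them, and no gene passed the test of that difference. The cdKO count fell to 6, 4 or 6 without cdKO sham 1, 2 or 3, to 4 or 3 without cdKO overload 1 or 3, and was 16 without cdKO overload 2; Srm, Bop1 and Wdr75 stayed past the threshold under every alternative run.

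**Figure D3:**
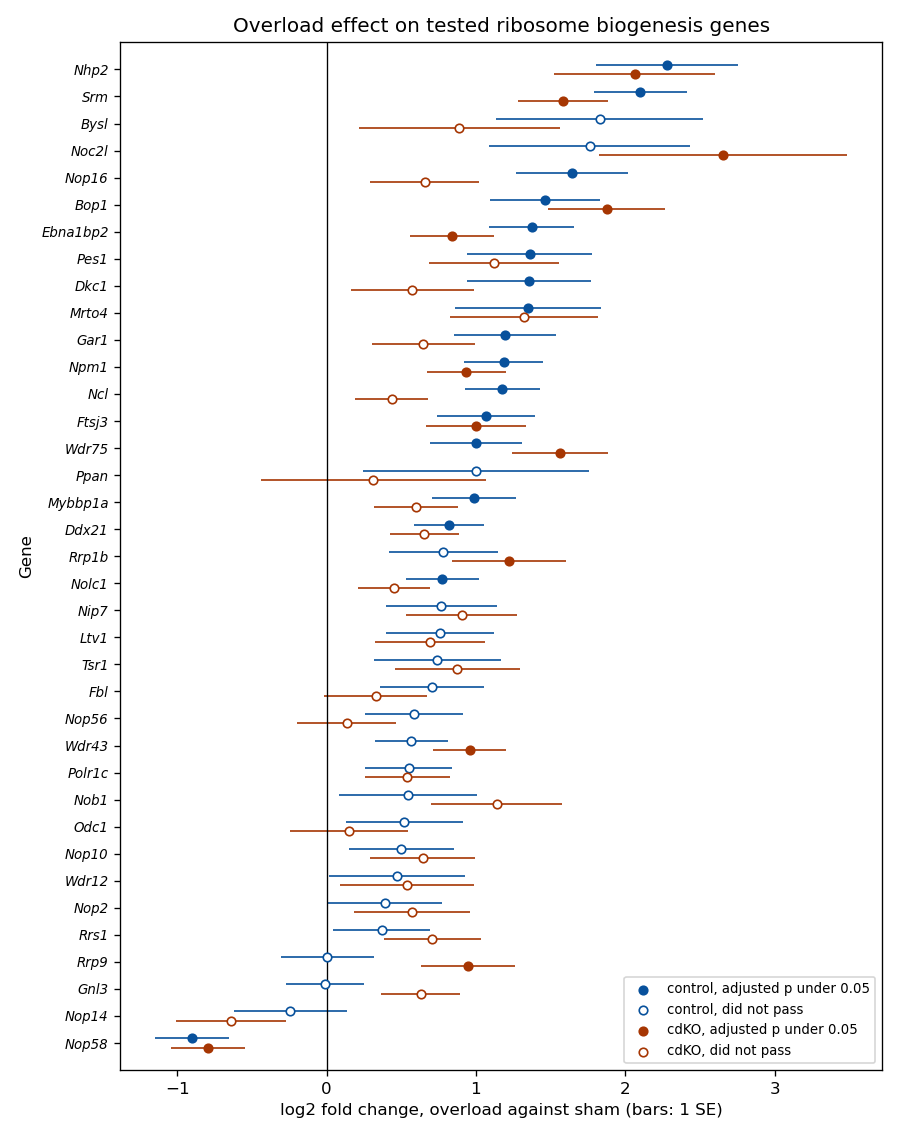
Log2 fold change of overload against sham (horizontal axis, bars 1 SE) for the 37 tested genes in control (blue) and cdKO (brown) progenitors; filled circles passed at an adjusted p under 0.05. All but Nop58, Nop14 and Gnl3 lie above 0 in control, with Nop58 below 0 and filled in both genotypes.

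The effect of overload did not pass a test of difference between genotypes for any of the 37 genes. By edgeR 0 of 8161 genes passed the interaction (0%), 427 of all genes and 2 of the 37 had an unadjusted p under 0.05, and DESeq2 and limma voom also called 0 of the 37. The smallest p values belonged to Ncl (interaction -0.74 ± 0.35, adjusted p = 0.931), Rrp9 (0.94 ± 0.44, adjusted p = 0.931) and Nop16 (-0.99 ± 0.53, adjusted p = 0.940). Rrp9, a component of the box C/D snoRNP that guides precursor cleavage, had 51.8, 73.8 and 74.5 CPM in control sham and 87.9, 72.7 and 42.03 in control overload (0.01 ± 0.31, adjusted p = 0.993), against 38.5, 36.4 and 48.3 under sham and 67.98, 55.9 and 110.02 under overload in cdKO (0.95 ± 0.32, adjusted p = 0.0477). Its control loads overlapped widely and its cdKO loads did not.

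Between genotypes under overload no ribosome biogenesis gene passed, while most fitted differences lay below 0. Of the 37 genes 0 passed in edgeR (3 of all genes did, 0.0368%, with 0.0245% lower), 4 had an unadjusted p under 0.05 (6.97% of all genes did), and DESeq2 and limma voom called 0. The fitted difference, cdKO minus control, was below 0 for 34 of 37 genes, against 47% of all genes tested, with a median of -0.38 against 0.03. All 3 cdKO overload libraries were below all 3 control overload libraries for 8 tested genes, 21.6% of the 37 against 5.31% of all genes, and above them for 0 of the 37 against 5.38%; untested Polr1b was higher in all 3. The 8 lower genes were Ncl, Nhp2, Dkc1, Gar1, Bop1, Nolc1, Mybbp1a and Bysl. Their margins differed. The highest cdKO and lowest control overload libraries were at 60.25 and 60.30 CPM for Gar1, 77.5 and 78.2 for Bop1 and 13.0 and 14.0 for Bysl, but at 924 and 1079 for Ncl. Nhp2 had the smallest adjusted p of the 37 (-1.13 ± 0.39, adjusted p = 0.501), and Gar1 differed by -0.71 ± 0.31 (adjusted p = 0.655). Nop58 (adjusted p = 0.998) and Wdr43 (adjusted p = 0.997) had the differences nearest to 0. The median SE of the 37 differences was 0.32.

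In sham muscle 0 of the 37 genes passed between genotypes by edgeR, DESeq2 or limma voom (0.0123% of all genes by edgeR, 1 gene, lower), and 2 had an unadjusted p under 0.05, as did 4.09% of all genes. The difference, cdKO minus control, was below 0 for 30 of 37 genes against 48.6% of all genes, with a median of -0.18 against 0.01. Wdr75 (-0.80 ± 0.36, adjusted p = 0.999), Rrp9 (-0.71 ± 0.33, adjusted p = 0.999) and Wdr43 (-0.40 ± 0.26, adjusted p = 0.999) were lower in every cdKO sham library than in every control sham library, as was untested Rrp12, and 4.45% of all genes separated in this way; 0 genes of the 37 were higher in every cdKO library, against 5.44%. The 2 genotype comparisons and the 2 overload comparisons share libraries, so their values are given side by side only.

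The mean of log2(CPM + 1) over all 40 genes summarises each library. In control mice it was 5.07 ± 0.17 (SD, n = 3) under sham and 5.95 ± 0.13 under overload, and in cdKO mice 4.83 ± 0.08 and 5.64 ± 0.20. The same mean over all tested genes was 5.25 and 5.19 in control and 5.26 and 5.24 in cdKO. Control overload libraries ran from 5.80 to 6.05 and control sham libraries from 4.94 to 5.26, and cdKO overload libraries ran from 5.45 to 5.84 and cdKO sham libraries from 4.75 to 4.90, so the loads were apart in both genotypes. Overload added 0.87 in control and 0.81 in cdKO, cdKO was lower than control by 0.31 under overload and by 0.25 under sham as differences of group means, and no test was run because the genes were chosen with results known. Control overload 1 and cdKO overload 2 had the lowest mean of their groups, and without them the added amounts were 0.95 in control and 0.91 in cdKO.

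**Figure D4:**
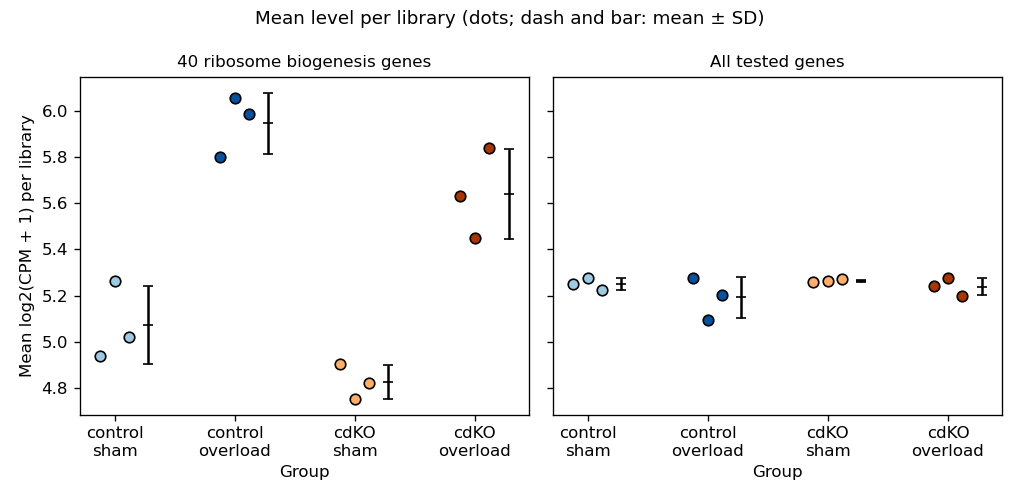
Mean log2(CPM + 1) per library (dots) over the 40 ribosome biogenesis genes (left) and over all 8161 tested genes (right), by group, with the mean and SD of 3 libraries; the shared vertical axis does not start at 0. Overload libraries lie above sham libraries on the left, where group means run from 4.83 to 5.95, and the groups on the right differ little, from 5.19 to 5.26.

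As a share of all counts, the 40 genes took 0.274% to 0.347% under sham and 0.474% to 0.590% under overload in control libraries, and 0.269% to 0.302% and 0.374% to 0.446% in cdKO libraries. Ncl, Npm1 and Nop58 gave 47.0% of these counts, so the share leans on them, whereas the mean of logs weights genes equally. Because libraries are made from many cells, fewer cells that express a gene and less of its RNA per cell cannot be told apart.

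Lists of other genes of the pathway were counted in the same way, where 10.6% of all genes were higher in control and 6.37% in cdKO. Of 38 other small subunit factors, 3 rose in control and 5 in cdKO, and none fell. Pno1, needed for late small-subunit maturation, rose in both (1.57 ± 0.27, adjusted p = 0.000168, and 1.259 ± 0.27, adjusted p = 0.00260), as did Heatr1 (1.07 ± 0.34, adjusted p = 0.0258, and 1.44 ± 0.34, adjusted p = 0.00614). Of 38 other large subunit factors, 8 rose in each genotype and none fell. Mak16 (1.36 ± 0.35 and 1.90 ± 0.37), Brix1 (0.82 ± 0.25 and 1.13 ± 0.26) and Eif6 (1.06 ± 0.26 and 1.05 ± 0.25) passed in both. The median fold change of the small-subunit list was 0.70 in control and 0.54 in cdKO, and that of the large-subunit list 0.62 and 0.60. Of 6 snoRNP assembly genes 1 rose in each genotype, the helicase Ruvbl2 (1.98 ± 0.34, adjusted p = 0.000158, and 1.35 ± 0.33, adjusted p = 0.00754). Of 9 genes listed for the RNA exosome, which trims precursor RNA ends, 3 rose in control and none passed in cdKO. The risers were Mphosph6, Exosc1 and Mpp6, of which Mpp6 is the symbol of a membrane scaffold gene and not of an exosome gene. Of 12 tested RNA polymerase I genes and factors, 0 passed in either genotype, among them Polr1a (0.80 ± 0.40, adjusted p = 0.157, in control) and Ubtf (0.05 ± 0.40, adjusted p = 0.943). Of the 12, 2 had an unadjusted p under 0.05 in control and 0 in cdKO, against 34.6% and 27.2% of all genes. Of 9 snoRNA host genes, 0 passed in control and Snhg6 rose in cdKO (1.41 ± 0.44, adjusted p = 0.0348).

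Myc, the activator named above, was lower in control overload than in control sham. Its CPM was 221, 279 and 194 in control sham and 96.5, 95.4 and 93.4 in control overload, so that it fell (-1.29 ± 0.28, adjusted p = 0.00166), and 238, 178 and 119.8 in cdKO sham and 61.8, 138 and 109 in cdKO overload (-0.79 ± 0.28, adjusted p = 0.0614). The control loads were far apart, and cdKO sham 3 lay within the cdKO overload range. Of the 7 MYC family genes tested none rose in either genotype, Mxi1, a MYC antagonist, fell in cdKO (-1.08 ± 0.36, adjusted p = 0.0496), and Mycn, at most at 22.7 CPM in any library, had too few counts to test. Of all genes tested, 10.6% rose and 11% fell in control, and 6.37% rose and 6.68% fell in cdKO. Among 10 other polyamine genes tested, Sat1, which acetylates spermidine for export and breakdown, fell in control (-1.40 ± 0.30, adjusted p = 0.00163), Mtap, which recycles the by-product of spermidine synthesis, rose in control (1.43 ± 0.35, adjusted p = 0.00483), and none passed in cdKO.

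Trp53, whose protein is stabilised when ribosome assembly fails, did not pass (0.73 ± 0.35, adjusted p = 0.135, in control). Of 10 p53-related genes tested 2 fell in both genotypes and 0 rose, where 11% of all genes fell in control and 6.68% in cdKO. The 2 that fell were the cell cycle inhibitor Cdkn1a (-1.76 ± 0.28, adjusted p = 6.85e-05, and -1.36 ± 0.28, adjusted p = 0.00177) and Btg2 (-0.93 ± 0.29, adjusted p = 0.0239, and -1.36 ± 0.29, adjusted p = 0.00326). Cell cycle genes rose in the same libraries: 14 of 16 tested rose in control and 5 of 16 in cdKO, against 10.6% and 6.37% of all genes. Their summed level was 200.4 to 253 CPM under sham and 572 to 1362 under overload in control libraries, and 161 to 218 and 264 to 539 in cdKO libraries. Their part in the ribosome biogenesis result was not tested. Top2a, the topoisomerase of dividing cells, rose in both (4.08 ± 0.48, adjusted p = 3.45e-06, and 1.99 ± 0.45, adjusted p = 0.00545).

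Reads of some of the 40 genes are uncertain. Besides Npm1 and Nop58, stretches of at least 100 of the last 400 bases with at least 95% identity to another gene's transcript were found for Bysl, Dkc1, Fbl, Mrto4, Mybbp1a, Noc2l, Nop56, Polr1b, Tsr1 and Wdr12. Fbl shares 299 bases with Tulp4, which held 939 counts against 378 for Fbl. For Polr1b such stretches lay in transcripts of 66 other genes, and they are parts of the 3′ end, not copies of the gene. Exons of 15 genes overlap a gene on the opposite strand, Tsr1 and Srr by 1240 bases and Noc2l and Samd11 by 598. The stretches that Bysl shares with Ccnd3, Mybbp1a with Spns2, Tsr1 with Srr and Noc2l with Samd11 involve such overlapping genes. These pairs therefore appear in both searches. Srm, Ebna1bp2, Nop16 and Ncl had neither such a stretch nor such an overlap.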

How the data were processed

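RNA was measured in 12 libraries of sorted Pdgfra+ progenitors, and the authors deposited 1 table of raw counts per gene, all whole numbers. Build GRCm38 and, as tools, featureCounts 2.0.1, HISAT2 2.2.1, DESeq2 1.26.0 and Trim Galore 0.6.6 are named per the submitters' processing notes; per the labels' protocols, 1000 cells were sorted per tube into lysis buffer. The annotation release, the strand setting and any use of molecular identifiers are not given in the sources read here. All 54100 gene identifiers matched the GRCm38 annotation used for coordinates. Floors of counts cover counting error only, whereas SE and SD also include the spread between libraries. Groups and replicate numbers came from the labels, and no 2 replicate libraries agreed within sampling noise (the chi-square over its degrees of freedom was 3.22 to 19.2).

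From the counts, edgeR 4.0.16 (R 4.3.3) fitted all 12 libraries in 1 robust quasi-likelihood model, with group means as coefficients, after filterByExpr and TMM scaling; tests were two-sided, with Benjamini-Hochberg adjustment over 8161 genes and a threshold of 0.05. Errors of fold changes are SE, the absolute log2 fold change over the square root of F. CPM used TMM-scaled totals of the tested genes (92.9% to 97.6% of counts), and means over the 40 genes used log2(CPM + 1) with no test. The fitting was tested on simulated data. Each simulated run changed 200 of the 8161 genes, whereas 1768 passed in the data for overload against sham in control. The share of changed genes affects the adjustment, so the simulated rates need not hold for the data. For overload against sham in control, 24% of simulated 2-fold and 79% of simulated 4-fold changes passed, and 5.5% of calls were false. A gene that did not pass may therefore still differ. Alternatives were DESeq2 1.42.0, limma 3.58.1 voom, other scalings, no filter, thinned counts, a replicate block, only the groups compared, other pseudocounts and each library left out. Pseudogene copies were sought with BLAST 2.17.0.

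The 40 genes, the other lists and the motifs were chosen with earlier results of these data known. Values per library are given for up to 20 genes that passed in control overload and any that fell, up to 8 in each other comparison of groups, the 3 with the smallest interaction p, and the 3 with the highest CPM; up to 4 genes are named from each further list, with Myc, Mycn, Ubtf, Polr1a, Trp53, Yap1 and Wwtr1 always.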

Additional observations from a re-analysis of the deposited data

How the results depend on the processing

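The count of ribosome biogenesis genes past the threshold in control overload was 17, and it was 13 to 17 with DESeq2, limma voom, the other scalings, no filter, thinned counts, only the groups compared and the replicate block (16). It ranged from 11 to 22 with each library left out, and was 4 without control overload 2 and control sham 3, the largest and smallest libraries, an alternative chosen after seeing the data. In cdKO overload the count was 12; it was 8 with DESeq2 and with voom, 9 with the replicate block, 6 with no filter on low counts, 5 with counts thinned to the smallest library, and 3 to 16 with each library left out. Fewer libraries and, in thinning, fewer genes tested (5408) are part of the construction of these settings, and otherwise the cause was not tested. The counts for the 2 genotype comparisons and the interaction were 0 in all alternatives run. Deviations of same-numbered libraries correlated at -0.23 to 0.27 and those of other pairs at -0.31 to 0.33, over pairs within and across genotypes. Between sham and overload of 1 genotype, same-numbered libraries correlated at -0.11 to 0.27 and others at -0.26 to 0.19. These ranges overlapped, and whether the same number marks paired libraries was not tested.

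The mean over the 40 genes rose by 0.81 in cdKO overload, by 0.65 with log2(CPM + 5) and by 0.71 to 0.91 with each library left out. In control it rose by 0.74 to 0.97 over all alternatives. With each library left out, the cdKO minus control difference ran from -0.41 to -0.21 under overload and from -0.32 to -0.15 under sham, and the interaction from -0.16 to 0.04. Of 252 gene-by-alternative checks of the 17 calls in control, 200 kept the call and 52 lost it; of 166 for the 12 calls in cdKO, 98 kept it and 68 lost it, and none changed sign. Other scalings moved the median of all genes by at most 0.04. Depth limits the weak genes: Ppan, Bysl, Noc2l and Mrto4 had 84 to 146 counts over all libraries.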
